A study of Homo sapiens with 6 samples.

Results

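The mitochondrial chromosome carries 37 of the 46427 genes in the expression table, and these 37 genes are described here in control and si-MALAT1 libraries of 3 NSCLC cell lines (A549, H1299, and H460). They were chosen by position alone, as every gene that the deposited GRCh38 annotation (NCBI) places on chrM, a circle of 16569 bases. They comprise 13 mRNAs, of which 7 encode subunits of respiratory complex I (ND1 to ND6 and ND4L), 1 a subunit of complex III (CYTB), 3 subunits of complex IV (COX1 to COX3), and 2 subunits of complex V (ATP6 and ATP8). The other members are 2 rRNAs (RNR1 and RNR2) and 22 tRNAs. On the reference, 28 of the 37 genes are transcribed from the + strand and 9 from the - strand, the latter being ND6 and 8 tRNAs.

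RNA-seq was performed on 6 libraries, 1 control and 1 si-MALAT1 library of each cell line. The lines are established NSCLC lines, labelled as tumor in the control and as MALAT1 knockdown after transfection with an siRNA against MALAT1, a nuclear lncRNA. The control libraries are labelled as having no treatment, and the labels do not say whether they received si-Control, so effects of transfection and of MALAT1 knockdown cannot be told apart. No label gives a time after transfection. Each cell line and condition is 1 library, so no test was made inside a line, and the 3 cell lines served as pairs.

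Mitochondrial DNA is transcribed from both strands by the polymerase POLRMT with the factors TFAM and TFB2M into long RNAs that hold many genes. Most mRNAs and rRNAs are flanked by tRNAs, and excision of the tRNAs frees them; the mRNAs are then polyadenylated and bound by proteins such as LRPPRC. The encoded proteins are core subunits of the respiratory chain and ATP synthase, which are assembled with many subunits encoded in the nucleus. Mitochondrial genes have no introns, and neighbours abut or overlap, so a read at a border can belong to either gene.

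The borders that bear on the counts are shown here in the GRCh38 reference, 5′ to 3′ on the strand named. ATP8 (chrM:8366-8572, + strand) shares its last 46 bases, in capitals, with the start of ATP6. The last 60 bases of ND4L (chrM:10707-10766, + strand) end in 7 bases shared with ND4, in capitals. The start of COX3 (chrM:9177-9236, + strand) shares 1 base, in capitals, with the end of ATP6. The end of COX1 (chrM:7416-7475, + strand) is in capitals and runs directly into TRNS1, whose gene lies on the opposite strand. TRNY (chrM:5826-5891, - strand) lies 12 bases before COX1 on the opposite strand and shares the base in capitals with TRNC. TRNS1 (chrM:7446-7514, - strand) and TRNG (chrM:9991-10058, + strand) abut the ends of COX1 and COX3, respectively, and are shown because their counts differed widely.
ATP8: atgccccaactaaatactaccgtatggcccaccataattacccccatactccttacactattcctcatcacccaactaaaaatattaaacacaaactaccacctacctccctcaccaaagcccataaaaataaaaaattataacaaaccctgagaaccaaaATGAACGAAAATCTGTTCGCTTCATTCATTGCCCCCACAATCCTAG
ND4L end: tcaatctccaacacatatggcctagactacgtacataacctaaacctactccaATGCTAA
COX3 start: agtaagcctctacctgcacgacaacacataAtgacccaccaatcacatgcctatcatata
COX1 to TRNS1: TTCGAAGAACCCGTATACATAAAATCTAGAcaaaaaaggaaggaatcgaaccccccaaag
TRNY: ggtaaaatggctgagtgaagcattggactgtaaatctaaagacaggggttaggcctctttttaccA
TRNS1: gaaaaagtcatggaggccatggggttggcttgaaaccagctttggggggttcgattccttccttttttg
TRNG: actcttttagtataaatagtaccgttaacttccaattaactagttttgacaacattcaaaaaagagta

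The 6 libraries held between 42506818 (A549 control) and 68515992 (H460 control) counts, and the 37 genes between 75525 and 174699. MALAT1 had 231045 and 43858 counts in the H460 pair of libraries, 407551 and 47935 in the H1299 pair, and 93747 and 14447 in the A549 pair, which gives log2 changes of -2.32, -2.96, and -2.84. The epithelial keratins KRT8 and KRT18 were at 122.5 to 1778 and 236 to 2918 TPM (the deposited level per length of transcript), and the 5 epithelial markers summed to between 458 and 4728 TPM. EPCAM and CDH1 were at most 0.776 and 0.0468 TPM in H460 and H1299. KRT19, a further keratin, was at 399 to 550 TPM in H460, 0.230 to 0.256 TPM in H1299, and 0.888 to 2.23 TPM in A549. In H1299, only KRT8 and KRT18 of the 5 epithelial markers were above 0.55 TPM. VIM, a mesenchymal intermediate filament, was at 446 to 2120 TPM, with the highest values in H1299 (1844 and 2120 TPM). The 5 mesenchymal markers summed to between 447 and 2121 TPM. The leukocyte markers PTPRC and CD3E and the endothelial marker CDH5 had no reads, and the 5 endothelial markers summed to at most 1.11 TPM. The 5 leukocyte markers summed to between 9.61 and 47.7 TPM, nearly all of it from CD68, which many cell types express. CDKN2A, which H460 and A549 are known to have lost, was at 0 in both lines and at 47.2 and 49.3 TPM in H1299. The part of these marker levels in any result was not tested.

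COX3 and COX1, which encode complex IV subunits, were the most abundant mitochondrial mRNAs per length, and ND6 was the least abundant in all 6 libraries. COX3 (gene 4514, chrM:9207-9990) was at 1046 TPM in the control and 804 TPM in the si-MALAT1 library of H460, 934 and 1226 TPM in H1299, and 1176 and 1557 TPM in A549. COX1 (gene 4512, chrM:5904-7445), the catalytic subunit, was at 1108 and 746 TPM for H460, 493 and 677 TPM for H1299, and 549.4 and 799 TPM for A549. The ranges of COX3 and COX1 overlapped, and COX1 exceeded COX3 only in the H460 control. COX2, which carries the site that takes electrons from cytochrome c, came next at 104 to 183 TPM and overlapped neither COX1 nor the next gene. Among all genes, COX3 ranked between 35 and 92 by TPM and ND6 between 4890 and 7913.

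The remaining mRNAs of the + strand lay within a narrow range. ND4L and ND4, membrane subunits of complex I, had median levels of 40.6 and 39.4 TPM over the 6 libraries. ND3 followed with 29.8, ATP6 with 26.5, ND5 with 24.8, CYTB with 20.8, ND1 with 20.2, ATP8 with 16.0, and ND2 with 14.0 TPM. The ranges of each gene and the next in this order overlapped, so these neighbours were not separated. ND6 (gene 4541, chrM:14149-14673), the complex I subunit read from the - strand, was at 9.36 and 9.35 TPM for H460, 7.33 and 8.02 TPM for H1299, and 11.7 and 15.1 TPM for A549. COX3 stood 35.7 to 49.6 times above ATP6 in TPM, although both genes lie on the same strand and share a base. COX1 and COX3 together held 81.1% to 84.3% of the counts on the 37 genes.

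**Figure D1:**
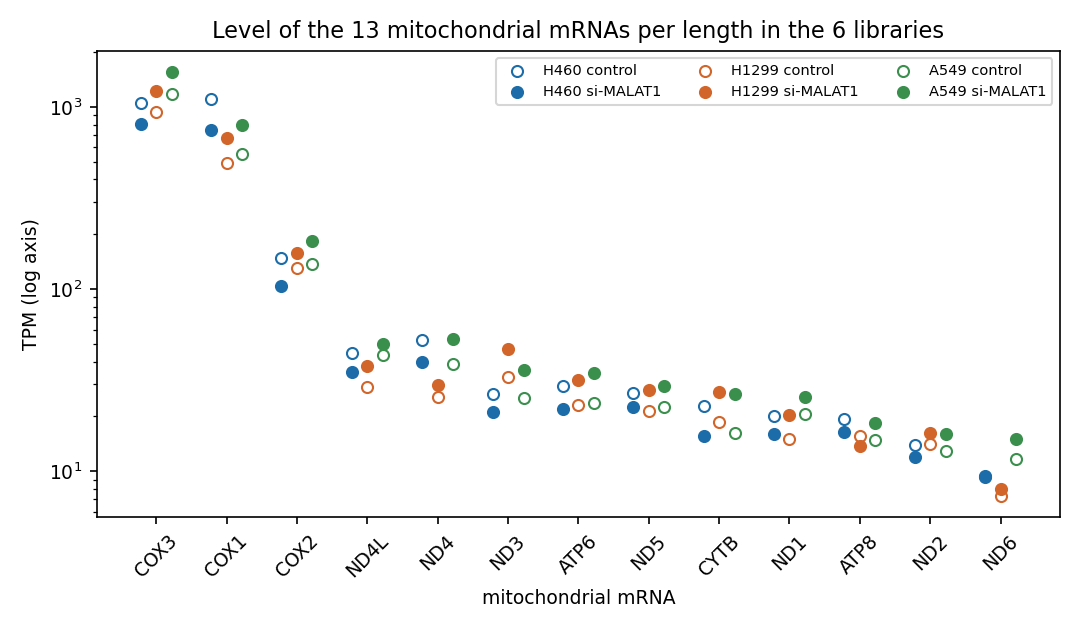
TPM (vertical log axis) of the 13 mitochondrial mRNAs, in the order of their median, with open points for control and filled points for si-MALAT1 libraries of each cell line. COX3 and COX1 stand above COX2, COX2 stands above the other 10 mRNAs, and ND6 is last at 7.33 to 15.1 TPM.

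Of the rRNAs, RNR1 (12S, of the small ribosomal subunit) was at 15.1 to 21.97 TPM and RNR2 (16S, of the large subunit) at 27.2 to 39.9 TPM. Libraries were made after removal of rRNA with a kit that targets cytoplasmic and mitochondrial rRNA, so these are the levels left after depletion. RNR2 had 2.49 to 3.25 times the counts of RNR1. Reads on 12 nuclear rRNA genes made up 1.32% and 0.672% of the counts for H460, 2.78% and 1.70% for H1299, and 0.563% and 0.534% for A549 (control, then si-MALAT1).

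Counts on the tRNAs were uneven. The 8 tRNAs of the - strand held 7.82 to 11 times the counts of the 14 tRNAs of the + strand, and TRNY and TRNS1 made up 76.2% to 83.4% of the - strand counts. The other 6 tRNAs of the - strand held 1.52 to 1.87 times the counts of the + strand, on which TRNT, the threonine tRNA, had most reads (55 to 128). TRNY, the tyrosine tRNA, had 540 to 1021 reads and TRNS1, a serine tRNA, 317 to 1374 reads in a library. These correspond to 0.952% to 1.84% and 1.01% to 1.65% of the counts of COX1, which lies next to both on the opposite strand. In contrast, TRNG, the glycine tRNA that abuts COX3 on its own strand, had 1 to 7 reads, or 0.00237% to 0.0145% of COX3. Of the 22 tRNAs, TRNF had no read in the H1299 si-MALAT1 library, which allows up to 3 reads. Whether counting used the strand of the reads is not given in the sources used here, so reads of a tRNA and of the opposite strand cannot be told apart.

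**Figure D2:**
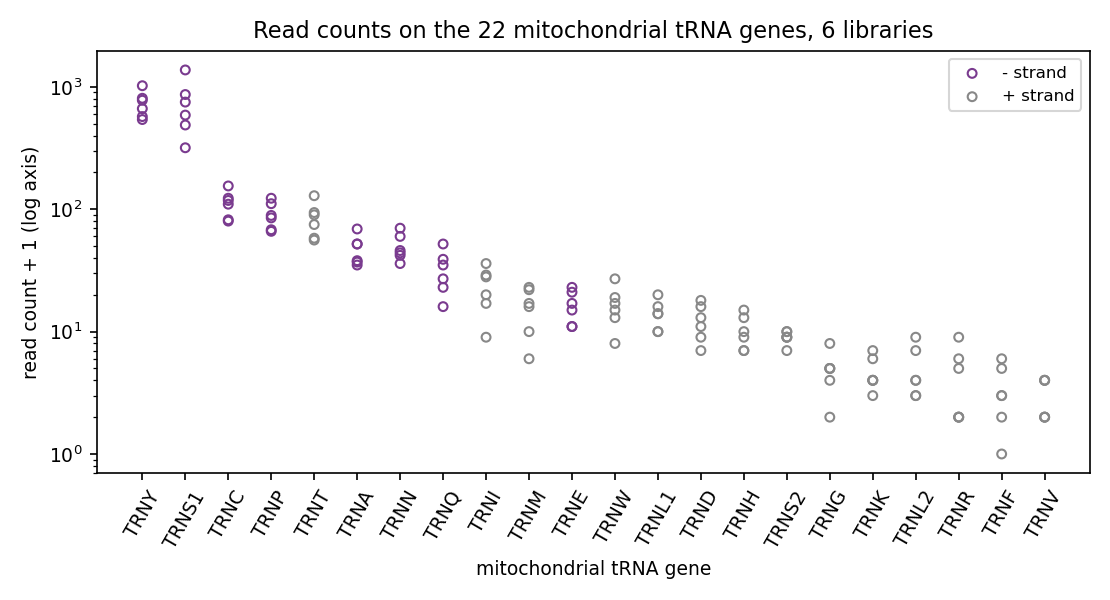
Read counts plus 1 (vertical log axis) on the 22 mitochondrial tRNA genes, 1 point per library, coloured by strand and ordered by median count. TRNY (540 to 1021 reads) and TRNS1 (317 to 1374 reads) of the - strand lie apart from the rest, and TRNG has 1 to 7 reads.

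The comparison of si-MALAT1 with control within each line showed lower mitochondrial mRNAs in H460 and higher ones in H1299 and A549. For the 13 mRNAs, the median log2 fold change was -0.22 for H460, 0.32 for H1299, and 0.42 for A549, computed on RLE-scaled counts plus 1 (counts divided by a size factor of the library). Over all 17834 genes that had a read in every library, the medians were 0.018, 0.022, and 0.0079. In H460 12 of 13 mRNAs were lower, in H1299 12 of 13 were higher, and in A549 13 of 13 were higher. Of the 13 mRNAs, 11 (84.6%) were lower in H460 and higher in both other lines, a pattern held by 11.3% of all genes and by 2 of 21 tRNAs. The pattern was taken from these same mRNAs, so the shares are a description and not a test. The mRNAs are processed from shared precursor RNAs and are not independent of each other.

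At a fold change of at least 1.5, 5 of 36 members passed in H460 against 19.8% of all genes, 5 of 36 in H1299 against 23.1%, and 13 of 36 in A549 against 22.9%. The members past this fold were 5 tRNAs in H460, 5 tRNAs in H1299, and 12 tRNAs and CYTB in A549. These A549 tRNAs had mean counts over all libraries of at most 46.2, and their directions differed. Intervals for counting error, described below, allowed a change in either direction for each of the 12 except TRNA (-1.40 to -0.076). Among the tRNAs past this fold in H460 and H1299, only TRNS1 had an interval that allowed a single direction. The 13 of 36 in A549 is therefore not a result about the tRNAs. With |log2 fold change| reaching 1.5, the size used by the study for DEGs, 1 member passed in H460 (2.76% of all genes), 2 in H1299 (2.18%), and 2 in A549 (3.36%). These were TRNR in all 3 lines, TRNG in H1299, and TRNL2 in A549, none of which had more than 8 reads in any library.

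In complex IV, COX1 had RLE-scaled counts of 92072 and 68114 for H460, 34713 and 45609.6 for H1299, and 38989 and 57148 for A549, control first. COX1 was therefore highest in the H460 control and lowest in the H1299 control. These give log2 changes of -0.43 (95% interval -0.45 to -0.42), 0.39 (0.38 to 0.41), and 0.55 (0.53 to 0.57), where exact Clopper-Pearson intervals on the split of the reads cover counting error only. COX3, the third core subunit, had scaled counts of 44158 and 37350.1 for H460, 33461 and 41978 for H1299, and 42447 and 56627 for A549. Its log2 changes were -0.24, 0.33, and 0.42. COX2 was at 5471 and 4199, 4066 and 4722, and 4305 and 5814, with log2 changes of -0.38, 0.22, and 0.43.

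CYTB (gene 4519, chrM:14747-15887), the only subunit of complex III encoded in mitochondria, had the highest log2 change of the 13 mRNAs in H1299 and in A549. Its scaled counts were 1404 and 1059.5 for H460, 975 and 1349 for H1299, and 852 and 1411 for A549. Control and si-MALAT1 values overlapped across the lines, since the H460 control lay near the A549 si-MALAT1 library. The log2 changes were -0.41 (-0.52 to -0.29), 0.47 (0.36 to 0.58), and 0.73 (0.59 to 0.87).

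The summed 7 complex I mRNAs differed less between the libraries of a pair than each other class of mRNA. Their counting intervals overlapped those of the complex V sum in each line, so these classes were not separated. The log2 changes of the sum were -0.18 for H460, 0.26 for H1299, and 0.39 for A549. Single members did not all follow, since ND3 had -0.18, 0.44, and 0.51, above COX2 and COX3 in H1299 and A549. ND5, a proton-pumping subunit, was at 2636 and 2427, 1779.6 and 2221, and 1881 and 2465 scaled counts. ND4 was at 3899.9 and 3256, 1614 and 1781, and 2472 and 3383 scaled counts. Both followed the pattern of COX1, with log2 changes of -0.12, 0.32, and 0.39 for ND5 and -0.26, 0.14, and 0.45 for ND4. ND6, the mRNA of the - strand, was at 265 and 292, 177 and 185, and 284 and 369 scaled counts. It was the only mRNA that was not lower in H460, with a log2 fold change of 0.14 and an interval from -0.10 to 0.38 that included 0, and it was at -0.0025 on log2(TPM + 1). The intervals of ND2, ATP8, and ND6 included 0 in H460 and in H1299, and that of ATP8 also in A549.

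In complex V, ATP6, the proton channel subunit, was at 1075 and 891 scaled counts for H460, 721 and 948 for H1299, and 744 and 1089.5 for A549. Its log2 changes were -0.27, 0.39, and 0.55. ATP8, which shares 46 bases with ATP6, was at 217 and 201, 147 and 126, and 142 and 177 scaled counts. ATP8 was the only mRNA with a lower value in H1299, at a log2 fold change of -0.23 (-0.55 to 0.09). Reads in the shared bases could have been assigned to either gene.

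**Figure D3:**
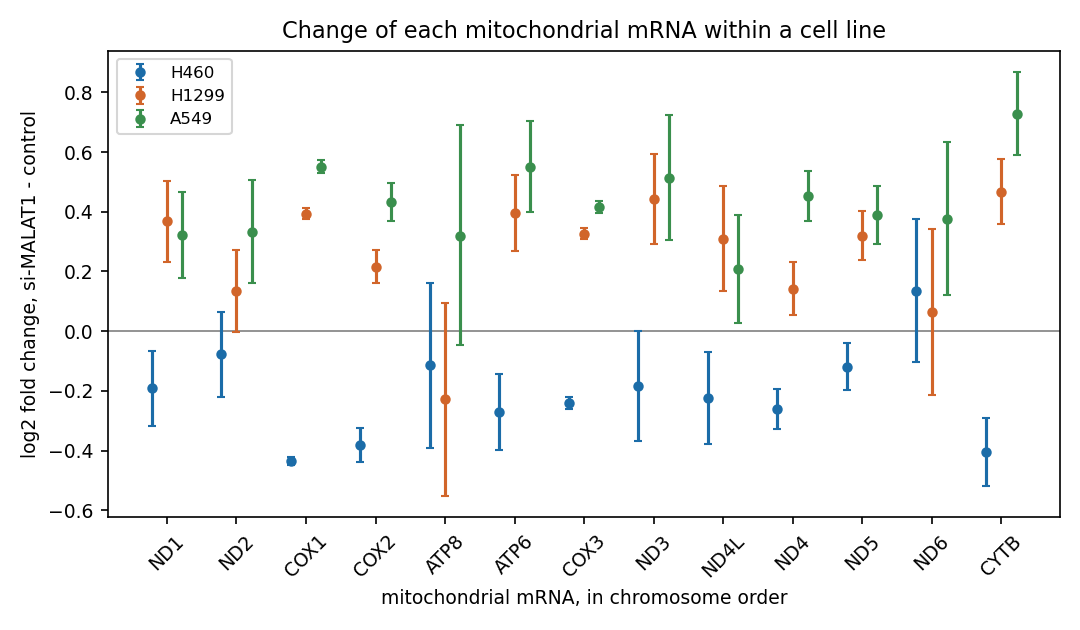
Log2 fold change (vertical axis, si-MALAT1 minus control on RLE-scaled counts plus 1) of the 13 mRNAs in chromosome order, with 1 point per cell line and 95% intervals for counting error. H460 points lie below 0 except ND6 (0.14), and points of H1299 and A549 lie above 0 except ATP8 in H1299 (-0.23).

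The rRNA values had the same directions as the mRNAs, and those of the tRNAs were less uniform. The log2 changes of the summed rRNAs were -0.23 for H460, 0.32 for H1299, and 0.13 for A549. RNR1 was at 1033 and 918 scaled counts for H460, 658 and 775 for H1299, and 833 and 973 for A549. RNR2 was at 3353 and 2813, 1939.7 and 2470.2, and 2280.1 and 2425 scaled counts, and its interval in A549 (-0.0039 to 0.18) included 0. Nuclear rRNA reads, given above, made up a smaller share in the si-MALAT1 library of all 3 lines, and their part in these values was not tested.

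The tRNAs of the - strand had 2881 and 1782 reads in the H460 pair, 1728 and 1969 in the H1299 pair, and 1125 and 1318 in the A549 pair, with log2 changes of -0.61, 0.32, and 0.083. In A549 the interval for this sum (-0.032 to 0.20) included 0 and lay below that of the summed mRNAs (0.46 to 0.49). TRNS1 was at 1270.4 and 734 scaled counts for H460, 465 and 750.5 for H1299, and 417 and 579.9 for A549, which gives log2 changes of -0.79, 0.69, and 0.47. TRNS1 therefore had the direction of COX1, its neighbour on the opposite strand, in each line. TRNY was at 944 and 649, 639 and 674, and 711 and 679.9 scaled counts, with log2 changes of -0.54, 0.08, and -0.06, and its interval included 0 in H1299 and A549. The tRNAs of the + strand had 267 and 221, 221 and 179, and 143 and 143 reads, and the intervals of their summed changes included 0 in each line.

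**Figure D4:**
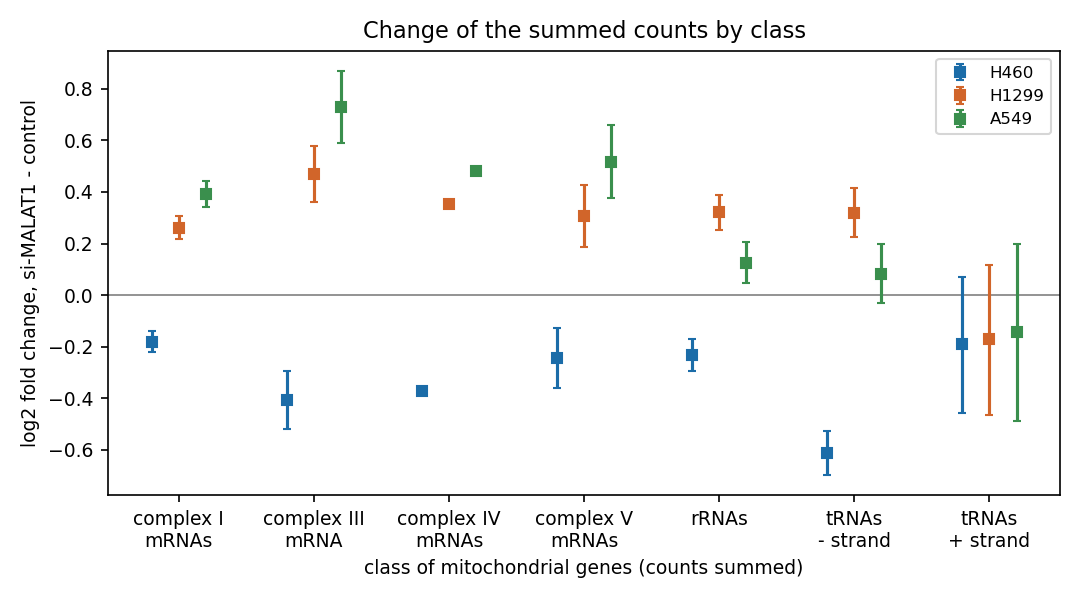
Log2 fold change of the counts summed by class (vertical axis), 1 square per cell line, with 95% intervals for counting error. Each mRNA class and the rRNAs lie below 0 in H460 and above 0 in H1299 and A549, and the + strand tRNAs have intervals that include 0 in each line.

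Across the 3 pairs, none of the 30 members that passed the filter on low counts was called at an adjusted p under 0.05 in edgeR's paired quasi-likelihood test, against 0.00523% of the 19122 genes tested. None had an unadjusted p under 0.05, against 15.0% of all genes. DESeq2 called none of them, against 5.96% of all genes (563 higher and 577 lower), and gave no adjusted p for 13 tRNAs. The 30 members were the 13 mRNAs, both rRNAs, and 15 tRNAs. The smallest adjusted p was 0.607, for ND5 (log2 fold change 0.18, SE 0.14), and over the alternatives its adjusted p ranged from 0.317 to 1.00. COX1 had a log2 fold change of 0.15 (SE 0.20, adjusted p = 0.781), COX3 0.15 (SE 0.16, 0.715), and CYTB 0.25 (SE 0.23, 0.673), each higher in 2 of 3 lines. The median over the 13 mRNAs was 0.15, beside 0.0048 over all genes tested, and leaving out H460 gave 0.33, leaving out H1299 0.091, and leaving out A549 0.027. Without H460, 6 members (COX1, ATP6, ND3, ND5, CYTB, and TRNS1) of 31 tested had an unadjusted p under 0.05, against 15.1% of all genes in that fit. None of them was called, against 0.8% of all genes, and the smallest adjusted p was 0.152, for CYTB. These 6 members were lower in H460 and higher in both other lines, so their p-values without H460 are a description and not a test. Leaving out H1299 or A549 gave 0 members with an unadjusted p under 0.05, where 2713 of 19542 and 1187 of 20619 genes had one. Of all genes tested, only MALAT1 was called by edgeR (log2 fold change -2.72, adjusted p = 0.0381). That call was lost without H1299, without A549, without the block, and with all genes that had a read, with adjusted p from 0.125 to 1.00.

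The share of all counts on the 37 genes was lower after si-MALAT1 in H460 and higher in the other lines. It was 0.255% (exact 95% interval 0.254% to 0.256%) and 0.198% (0.197% to 0.199%) for H460, 0.159% (0.158% to 0.160%) and 0.202% (0.201% to 0.203%) for H1299, and 0.178% (0.176% to 0.179%) and 0.2497% (0.248% to 0.251%) for A549, control first. The controls spanned 0.159% to 0.255% and overlapped the si-MALAT1 libraries. The log2 ratios were -0.36, 0.34, and 0.49, with a mean of 0.16 ± 0.46 (SD, n = 3) and p = 0.75 in a two-sided exact permutation test, which cannot go below 0.25 with 3 pairs. In bulk RNA, fewer mitochondria and less RNA per mitochondrion cannot be told apart.

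Single mitochondrial mRNAs were called between H1299 and the other lines, at lower shares than all genes, in a comparison added after the values were seen. The fit gave 1 line difference per gene over both treatments, although treatment changes differed in direction between lines. For COX1, H460 and H1299 stood at 92072 and 34713 scaled counts in the controls and at 68114 and 45609.6 after si-MALAT1. With the control and si-MALAT1 library as the 2 libraries of a line and treatment as a term, edgeR called 3 of 30 members higher in H460 than in H1299, where 52.6% of all genes were called. These were ND4 (log2 difference 1.10, SE 0.19, adjusted p = 0.00418), COX1 (1.03, SE 0.25, 0.0151), and ND4L (0.61, SE 0.20, 0.0454). Between H460 and A549, 0 of 30 members were called, against 38.2% of all genes. An unadjusted p under 0.05 was found for 2 members (COX1 and TRNS1), a cut that at least the same 38.2% of all genes passed. DESeq2 called these 2, against 41.3% of all genes. Between H1299 and A549, 2 of 30 members were called, against 48.9% of all genes. Both were lower in H1299, ND4 by a log2 difference of -0.79 (SE 0.19, adjusted p = 0.0157) and ND6 by -0.85 (SE 0.24, 0.0268).

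The scaled counts given above show these differences. For ND4 both H1299 libraries (1614 and 1781) lay below the other 4 libraries (2472 to 3899.9). For ND6 both H1299 libraries (177 and 185) lay below the other 4 (265 to 369). For COX1 both H460 libraries (68114 and 92072) lay above the other 4 (34713 to 57148), whereas for COX3 the lines overlapped, with a log2 difference between H460 and H1299 of 0.14 and an adjusted p of 0.571. COX1 had 2.09 and 1.82 times the counts of COX3 in H460, 1.04 and 1.09 times in H1299, and 0.919 and 1.01 times in A549. ND4 had 1.48 and 1.34 times the counts of ND5 in H460, 0.907 and 0.802 times in H1299, and 1.31 and 1.37 times in A549. ND4L, whose call was the weakest, was at 717 and 614, 395 and 490.2, and 594 and 686 scaled counts and shares 7 bases with ND4. Over the alternatives, the adjusted p of ND4 between H460 and H1299 stayed between 7.83e-06 and 0.00985, that of COX1 between 0.000303 and 0.0323, and that of ND4L ranged from 0.0422 to 0.0808. No label gives the preparation of the libraries by date or batch, so line and batch cannot be told apart.

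**Figure D5:**
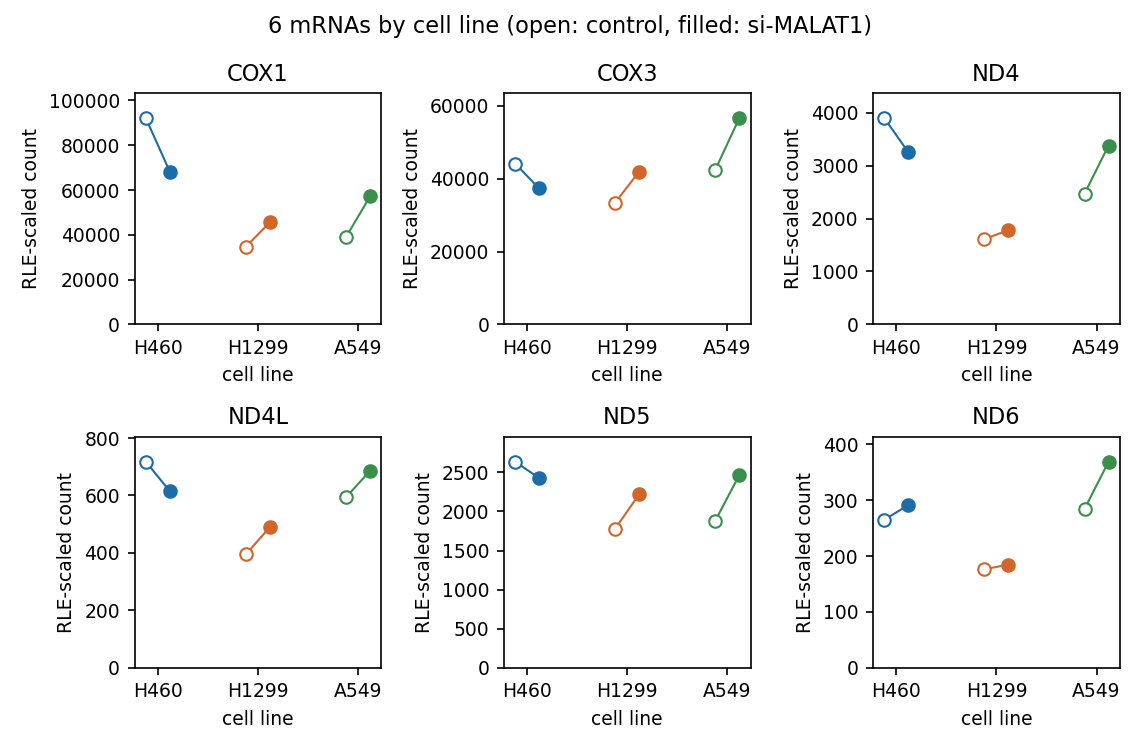
RLE-scaled counts (vertical axes from 0) of 6 mRNAs in the control (open) and si-MALAT1 (filled) library of each cell line. COX1 is highest in H460, ND4 and ND6 are lowest in H1299, and COX3 overlaps between lines.

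Of the 22 nuclear genes of mtDNA transcription and maintenance, edgeR called none, against 0.00523% of all genes tested. With so few calls over all genes, the absence of calls is not a result about this list. An unadjusted p under 0.05 was found for 6 of the 22, against 15.0% of all genes tested. DESeq2 called 4 of them, against 5.96% of all genes, with POLRMT, TFAM, and RNASEH1 lower and TK2 higher. POLRMT, the mitochondrial RNA polymerase, had 2621 and 1715 counts for H460, 2981 and 2100 for H1299, and 2382 and 1803 for A549, and its log2 changes were -0.53, -0.37, and -0.55 (edgeR adjusted p = 0.128, DESeq2 0.00464). TFAM, which packages mtDNA and starts its transcription, had 6113 and 4612, 6340 and 2638, and 5681 and 3735 counts, with log2 changes of -0.32, -1.13, and -0.75 (edgeR adjusted p = 0.136, DESeq2 0.00342). Values of both were lower in the si-MALAT1 library in 3 of 3 lines. The median of the mitochondrial mRNAs was below 0 in H460 and above 0 in H1299 and A549. The relation of POLRMT and TFAM to the mitochondrial mRNAs was not tested. TFB2M, the partner of POLRMT at promoters, had log2 changes of 0.057, -0.16, and 0.068 (edgeR adjusted p = 0.94). RNASEH1, which removes RNA from RNA-DNA hybrids, had -0.26, -0.47, and -0.57 (edgeR 0.165, DESeq2 0.0218), and TK2, a mitochondrial thymidine kinase, had 0.35, 0.54, and 0.45 (edgeR 0.163, DESeq2 0.0143).

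Of 37 genes of mtRNA processing, stability, and decay, edgeR called none (8 at an unadjusted p under 0.05). DESeq2 called 3, PDE12 and GFM2 lower and HSD17B10 higher. These counts are to be read against the same shares of all genes, 0.00523% called by edgeR, 15.0% at an unadjusted p under 0.05, and 5.96% called by DESeq2. PDE12, which removes poly(A) tails from mitochondrial mRNAs, had 1749 and 971 counts for H460, 3422 and 1196 for H1299, and 1274 and 512 for A549. Its log2 changes were -0.77, -1.38, and -1.46 (edgeR adjusted p = 0.0734, DESeq2 5.55e-07). Over the alternatives its adjusted p reached 1.00, and it was called in edgeR without H460 and with the filter of at least 1 read in each library. GFM2, a factor that recycles mitochondrial ribosomes, had log2 changes of -0.43, -0.89, and -0.80 (edgeR 0.102), and HSD17B10, a subunit of mitochondrial RNase P, 0.43, 0.40, and 0.25 (edgeR 0.226). LRPPRC, which stabilises mitochondrial mRNAs, had 0.11, -0.10, and 0.19 (edgeR 0.88). Among 8 regulators of mitochondrial biogenesis tested, neither tool called any, against 0.00523% (edgeR) and 5.96% (DESeq2) of all genes. In edgeR 2 had an unadjusted p under 0.05, against 15.0% of all genes. PPARGC1A, a coactivator of this program, had log2 changes of 0.65, 0.14, and 1.27 (edgeR adjusted p = 0.244).

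Median changes of the nuclear-encoded subunits of the same complexes were opposite in sign to the mitochondrial mRNAs in H460 and H1299, but not in A549. The median log2 changes of 37 complex I, 9 complex III, 11 complex IV, and 17 complex V subunits were 0.36, 0.29, 0.27, and 0.30 in H460, beside -0.22 for the mitochondrial mRNAs. In H1299 they were -0.023, -0.15, -0.11, and -0.013, beside 0.32, and in A549 0.16, 0.056, 0.11, and 0.18, beside 0.42. The difference between nuclear and mitochondrial genes was not tested. In edgeR none of these subunits was called (6, 2, 1, and 1 at an unadjusted p under 0.05, against 15.0% of all genes). DESeq2 called NDUFA12, an accessory subunit of complex I, higher (0.43, 0.27, and 0.40), against 5.96% of all genes called. Of the 37 complex I subunits, 17 had higher values in all 3 lines, against 21.4% of all genes. The same held for 2 of 9 complex III, 2 of 11 complex IV, and 7 of 17 complex V subunits. Lower values in all 3 lines were found for 1 complex I subunit (NDUFS1) and 1 complex IV subunit (COX6A1), against 18.8% of all genes.

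Nuclear copies of mitochondrial sequence could take or give reads. The table holds 10 MTRNR2L genes, copies of RNR2, of which 7 had no read, and the 10 together had 7 reads in the 6 libraries. In the GRCh38 nuclear genome, 482 stretches of at least 31 bases matched chrM exactly, the longest over 294 bases. Of the 25 stretches of at least 100 bases, 21 lay on chromosome 1 between 629084 and 634924. In COX1 27.9% of 100-base windows had such a match, in ND2 26.1%, in RNR1 21.2%, in ATP6 11.9%, and in COX3 4.67%, and none in ND3, ND4L, ND4, ND5, ND6, CYTB, ATP8, or RNR2. The part of such copies in the counts was not tested. How reads with several alignments were counted is not given in the sources used here.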

How the data were processed

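RNA-seq was performed on 6 libraries, grouped by the cell line and treatment that the labels give. The authors prepared stranded total RNA libraries after rRNA removal and processed them, as the labels list, with bcl2fastq 2.20.0, Trimmomatic, HISAT2 2.1.0, and StringTie 1.3.4b. The labels list both hg19 and GRCh38, and the methods name hg38 and a later StringTie version. The deposited counts are whole numbers per gene and not normalized, and the deposited TPM and FPKM values were scaled by the authors for length and depth (FPKM were not used for any result). Another 18 columns of per-sample values belong to other samples and were not used. Counts on the 37 members per library (75525 to 174699) set the precision of the intervals, which cover counting error only.

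Within a line, log2(RLE-scaled count + 1) was compared among genes with at least 1 read in each library. Across lines, edgeR 4.0.16 (R 4.3.3) was fitted to all genes passing filterByExpr with TMM and the cell line as block, leaving 2 residual degrees of freedom, with Benjamini-Hochberg adjustment over all genes and a threshold of 0.05. Pairs share a cell line, and their deviations from the group means correlated at 0.894, 0.922, and 0.884. DESeq2 1.42.0, other scalings, filters, pseudocounts, and leaving out each line were alternatives. Nothing in the sources says that the libraries come from separate cultures, so p-values measure only the spread between these samples. Tested on simulated counts of 18629 genes with 200 changed, edgeR recovered 99.5% and 2.93% of its calls were false. The 200 genes had log2 fold changes of 1 or 2 in size. The simulation used the same fixed spread for every gene and the same change in every line. Its rates therefore do not measure what the test could find in the real libraries. Recovery of log2 fold changes as small as that of COX1 over the 3 pairs (0.15, SE 0.20) was not tested.

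All 37 members are named or counted. Of other genes, MALAT1, POLRMT, TFAM, TFB2M, and LRPPRC were to be named, as were genes of each nuclear list called by edgeR and up to 3 a direction with the largest smallest |log2 fold change| over the lines, changed the same way in each, at a mean count of at least 50; of these, examples are given. Members and lists were chosen with earlier results of these data known. Sequences were read from the GRCh38 reference, and exact nuclear matches of chrM were searched on both strands with Python 3.11.15. A further line check is not reported here.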

Additional observations from a re-analysis of the deposited data

Results flagged for a closer look

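The direction of the mitochondrial mRNAs differed between the cell lines. The median log2 fold change of the 13 mRNAs was -0.223 for H460, 0.32 for H1299, and 0.416 for A549, while 12 of 13 mRNAs were lower in H460, 12 of 13 were higher in H1299, and 13 of 13 were higher in A549. Each line has 1 library per condition, so the difference between the lines was not tested.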

How the results depend on the processing

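No mitochondrially encoded gene was called over the 3 pairs under any of the 9 alternatives (DESeq2, other normalizations, other filters on low counts, no block, and leaving out each line); leaving out each line in turn gave 0 calls. Without the replicate block 0 of 30 members were called, with a smallest adjusted p of 1.00, and the pairing changed no call of a member. Over all genes, edgeR called 44 higher and 103 lower with the filter of at least 1 read in each library, and 51 higher and 112 lower without H460, beside 0 and 1. The median log2 fold change of the mRNAs kept its sign in each line under every scaling tried. It was, in H460, -0.245 with TMM and -0.351 with log2(TPM + 1), in H1299 0.37 with log2(TPM + 1), and in A549 0.397 with TMM and 0.446 with library totals as the scale. Members past a fold change of 1.5 fell with a pseudocount of 10 to 2 for H460, 2 for H1299, and 4 for A549. Members past a |log2 fold change| of 1.5 fell to 0 in each line with that pseudocount, and with log2(TPM + 1) to 0, 1, and 0. The shares of all genes at these settings are not given here, so these falls are not a result about the members. The mean log2 ratio of the share of counts ranged from -0.00985 to 0.417 when a line was left out, the latter without H460. Of the line differences, DESeq2 called 2 members between H460 and A549 (COX1 and TRNS1) in place of 0, where it called 7901 of 19122 genes. It added RNR2 between H460 and H1299, where it called 10306 of 19122 genes. The filter of at least 1 read in each library replaced ND4L by RNR2 there, where 9324 of 17834 genes were called. That filter added TRNH between H1299 and A549, where 8678 of 17834 genes were called. Leaving out the third line gave 5 of 31 members between H1299 and A549 (COX3, ND1, ND4, ND4L, and ND6), where 11159 of 20386 genes were called. It gave 0 of 31 members between H460 and A549, where 8663 of 19542 genes were called. Between H460 and H1299 it gave 2 of 29 members, where 10399 of 20619 genes were called and ND4L was lost. The cause of these moves was not tested. The call of ND4L also rested on the filter on low counts. TRNG, TRNR, and TRNL2 had at most 8 reads in a library, so their log2 changes carry wide counting intervals.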
